A study of Mus musculus with 12 samples.

Results

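Genes not annotated as protein-coding have starts of their own, and some FOXP3 and Ku70 binding regions lay at such starts and at no protein-coding start. The chromatin came from mouse T cells, and binding was measured by ChIP-seq, in which DNA bound by a protein is pulled down with an antibody and sequenced. The WT FOXP3 list came from regulatory T cells (Tregs) of wild type Foxp3 YFP-Cre mice. The KO FOXP3 list came from Tregs of Xrcc6 knockout mice, which carry Foxp3 YFP-Cre and Xrcc6 fl/fl alleles, so that the Cre recombinase driven by Foxp3 removes Xrcc6, the gene of Ku70, in Tregs. Treg Ku70 and Tconv Ku70 regions came from CD4+CD25+YFP+ Tregs and CD4+CD25-YFP- conventional T cells sorted from Foxp3 YFP-Cre mice, whose Ku70 gene is intact. The study's methods give an age range for all mice but not the age of those used for ChIP-seq, all lines were on the C57BL/6J background, and the lists hold no expression values, so the labelled cell types were not checked against markers. Each set held 2 replicates and 1 input, and the replicates were pooled by the authors into 1 list of regions per set, so no value below has a spread between replicates. Intervals and tests therefore describe a list and not a condition, and the lists were not tested against each other. Inside the lists the regions carry the names iTreg, Teff and CKO, and here they are called by the sample labels.

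A region was a member when its summit, the base of highest signal, lay within 3 kb of a transcript start of a noncoding gene and of no protein-coding gene (GENCODE M21, mouse build mm10, autosomes only). Noncoding here means every gene type other than protein-coding. It takes in immunoglobulin and T cell receptor segments, which encode parts of receptor chains, and genes that await experimental support. A stretch of chromosome 1 and a stretch of chromosome 4 that gather many regions were left out, and they held 55 (WT) and 24 (KO) FOXP3 regions and 82 (Treg) and 130 (Tconv) Ku70 regions. The rule took 675 of the 8752 autosomal regions tested, from 9381 regions in the 4 lists. These were 146 of 1635 WT FOXP3 regions, 40 of 489 KO FOXP3 regions, 361 of 5067 Treg Ku70 regions and 128 of 1561 Tconv Ku70 regions. Where several rows gave the same region, the row of highest fold enrichment, then of highest −log10 p, gave the summit. Beyond that the rule used positions only, and copy number and overlap between lists were not part of the choice.

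FOXP3 is the forkhead transcription factor that defines Tregs, and Ku70 is, with Ku80, the DNA end-binding dimer of non-homologous end joining. Long noncoding RNAs (lncRNAs) are transcripts without an open reading frame of known use, and some, such as Neat1, build nuclear bodies. Processed pseudogenes are DNA copies of spliced mRNAs inserted elsewhere in the genome, and unprocessed pseudogenes are decayed gene duplicates. Both keep sequence of a parent gene, so that short reads from parent and copy can be alike. Small nucleolar RNAs (snoRNAs) guide the modification of other RNAs, and large arrays of them lie in the imprinted host transcript Snhg14.

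Sequences around 8 summits show what the regions hold, on the forward strand of mm10, with the 31 bases at the summit in capitals. They were chosen as regions found in more than 1 list (Fabp3-ps1, Gm28556, Gm29243, Gm22812), as the strongest region at Neat1, and as the strongest regions of their list and gene type (Snord116l5, Snord116l9, Gm4111).
Fabp3-ps1 in WT FOXP3, chr10:86732242-86732342: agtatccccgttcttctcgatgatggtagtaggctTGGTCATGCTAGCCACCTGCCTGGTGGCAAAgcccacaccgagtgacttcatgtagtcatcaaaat
Gm28556 in WT FOXP3, chr1:138191917-138192017: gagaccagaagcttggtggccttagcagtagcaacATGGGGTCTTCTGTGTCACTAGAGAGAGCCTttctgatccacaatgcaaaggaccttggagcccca
Gm29243 in WT FOXP3, chr8:34216234-34216334: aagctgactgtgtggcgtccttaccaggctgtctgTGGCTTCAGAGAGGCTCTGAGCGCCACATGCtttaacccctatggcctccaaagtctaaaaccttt
Gm27533 at the Neat1 start in Treg Ku70, chr19:5843627-5843727: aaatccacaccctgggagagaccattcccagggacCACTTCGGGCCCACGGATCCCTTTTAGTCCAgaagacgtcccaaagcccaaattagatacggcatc
Gm22812 in WT FOXP3, chr7:59805989-59806089: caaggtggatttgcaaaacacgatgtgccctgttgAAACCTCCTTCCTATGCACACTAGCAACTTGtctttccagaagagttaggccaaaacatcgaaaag
Snord116l5 in Tconv Ku70, chr7:59886029-59886129: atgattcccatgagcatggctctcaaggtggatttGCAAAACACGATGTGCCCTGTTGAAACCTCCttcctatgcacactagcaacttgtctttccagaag
Snord116l9 in KO FOXP3, chr7:59896317-59896417: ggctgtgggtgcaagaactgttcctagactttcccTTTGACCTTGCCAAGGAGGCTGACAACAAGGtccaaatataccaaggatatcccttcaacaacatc
Gm4111 in WT FOXP3, chr16:3303058-3303158: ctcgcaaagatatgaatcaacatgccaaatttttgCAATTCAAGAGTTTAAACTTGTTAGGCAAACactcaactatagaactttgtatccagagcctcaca
The 31 summit bases of Gm28556, Gm29243 and Gm27533 occurred once in the genome. Those of Fabp3-ps1 and Gm4111 occurred 2 times each, those of Snord116l9 23 times, those of Snord116l5 39 times and those of Gm22812 43 times.

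At the 3 kb window the members took a somewhat larger share of each list than the genome offers. With 1 kb this did not hold for Treg Ku70, at 2.33% of regions beside 2.34% of bases. Bases that meet the rule made up 6.12% of the autosomes, 146 of 2393 Mb. Members were 8.93% of WT FOXP3 regions (95% Wilson interval 7.64 to 10.4), 8.18% of KO FOXP3 regions (6.06 to 10.9), 7.12% of Treg Ku70 regions (6.45 to 7.87) and 8.20% of Tconv Ku70 regions (6.94 to 9.67). The interval lay above 6.12% in all lists but KO FOXP3. With single-copy summits only, the FOXP3 shares were 7.26% (WT) and 7.55% (KO), and the Ku70 shares 6.58% (Treg) and 7.19% (Tconv). The 6.12% was not recomputed for single-copy bases. All intervals cover counting error only.

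Of 29093 noncoding genes that could hold a member, 163 had one within 3 kb of a start in the WT FOXP3 list (0.560%), 46 in the KO FOXP3 list (0.158%), 388 in the Treg Ku70 list (1.33%) and 146 in the Tconv Ku70 list (0.502%). Of the 695 genes with a member in any list, 651 had members in 1 list, 41 in 2 lists, 2 in 3 lists and 1 in all 4. A region counted for each gene with a start within 3 kb of its summit. Sharing was low for all autosomal regions too, as 0.651 to 1.53% overlapped a region of a second list in the 3 comparisons made. The same count for protein-coding genes was not made, so few shared genes are not shown to be a trait of noncoding starts. The counts of genes follow the lengths of the lists, and the sequencing depth behind each list is not recorded in it.

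Density showed no clear peak at the starts. Among bases more than 3 kb from a coding start, WT FOXP3 regions lay at 0.717 per Mb within 500 bp of a noncoding start (exact 95% Poisson interval 0.432 to 1.12), at 1.18 per Mb between 1000 and 2000 bp (0.894 to 1.53) and at 0.774 per Mb between 3000 and 10000 bp (0.676 to 0.882). Treg Ku70 regions lay at 2.49 per Mb within 500 bp (1.93 to 3.17), at 2.82 between 1000 and 2000 bp (2.36 to 3.33) and at 2.26 between 3000 and 10000 bp (2.09 to 2.44). Tconv Ku70 regions lay at 1.02 per Mb within 500 bp (0.672 to 1.48) and at 0.825 between 3000 and 10000 bp (0.724 to 0.937), and KO FOXP3 regions at 0.340 (0.155 to 0.645) and 0.206 (0.157 to 0.266). In each list the interval within 500 bp overlapped the interval between 3000 and 10000 bp, while the WT FOXP3 interval between 1000 and 2000 bp lay just above it. More than 100000 bp from any noncoding start the density was 0.594 per Mb for WT FOXP3 regions (0.520 to 0.675), 0.216 for KO FOXP3 regions (0.172 to 0.267), 1.92 for Treg Ku70 regions (1.79 to 2.06) and 0.345 for Tconv Ku70 regions (0.289 to 0.408). For Tconv Ku70 that is lower than within 500 bp, with intervals that did not overlap, and for the other lists the intervals overlapped.

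**Figure D1:**
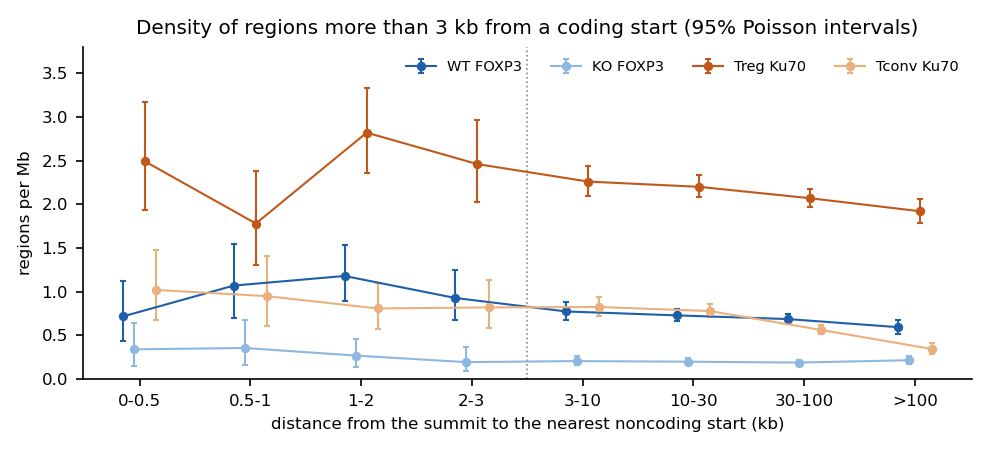
Regions per Mb of sequence (y axis) by distance of the summit to the nearest noncoding start in kb (x axis, distance classes of unequal width), for the 4 lists, counting only bases and regions more than 3 kb from a coding start. Points are densities, bars 95% Poisson intervals, and the dotted line marks the 3 kb limit of the rule. Tconv Ku70 falls from 1.02 to 0.345 per Mb from left to right.

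Summits lay on both sides of the starts. Over the 4 lists 314 of 675 (46.5%, 42.8 to 50.3) were upstream of the nearest noncoding start, and the median distance to it was 1373 bp. The nearest protein-coding start was a median 35.4 kb away. The summit was inside the noncoding gene itself in 214 members (31.7%) and in an exon of it in 121 (17.9%), and 178 (26.4%) lay inside a protein-coding gene. In 25 of the 675 the summit fell in an exon of a protein-coding gene, 17 of them in the Treg Ku70 list.

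Pseudogenes were the largest class. They were nearest to 78 of 146 WT FOXP3 members (53.4%, 45.3 to 61.3), 21 of 40 KO FOXP3 members (52.5%, 37.5 to 67.1), 177 of 361 Treg Ku70 members (49.0%, 43.9 to 54.2) and 60 of 128 Tconv Ku70 members (46.9%, 38.4 to 55.5), beside 42.3% of the bases that meet the rule. The interval lay above 42.3% in the WT FOXP3 and Treg Ku70 lists only. Over the lists together, lncRNA genes held 178 members (26.4%, 23.2 to 29.8) beside 30.2% of the bases. Small RNA genes held 103 (15.3%, 12.7 to 18.2) beside 15.7%. The remaining 58 (8.59%, 6.71 to 10.9, beside 11.8%) were 53 at genes marked TEC, which await experimental support, and 5 at immunoglobulin or T cell receptor variable segments. By finer type, 239 members lay at processed pseudogenes, 57 at unprocessed ones, 114 at lincRNA genes, 46 at antisense genes, 41 at snoRNA, 29 at snRNA and 21 at microRNA genes.

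**Figure D2:**
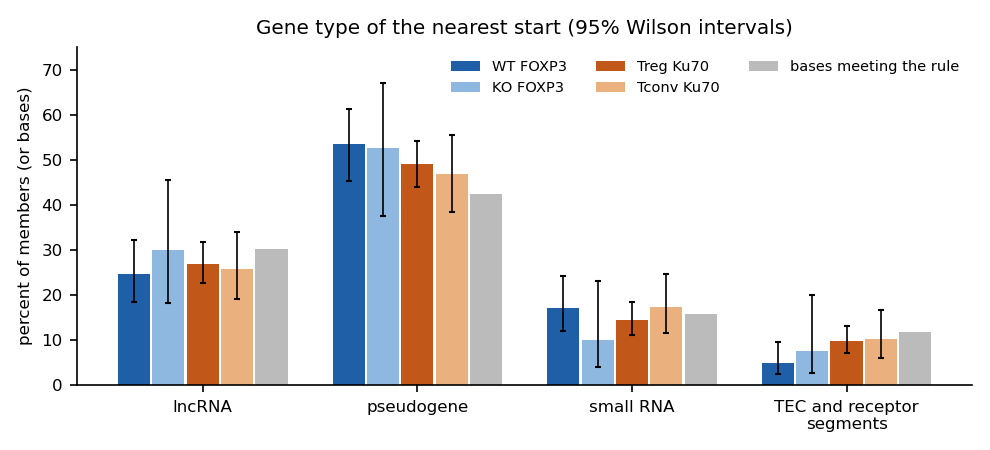
Percent of members (y axis) by type of the nearest noncoding gene (x axis) in the 4 lists, with 95% Wilson intervals, beside the percent of bases meeting the rule in grey. The pseudogene bars stand at 46.9 to 53.4% and the grey bar at 42.3%.

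The signal of the members was weak and like that of the other regions of their list. Fold enrichment is the read pileup at the summit over the local background estimated from the input, and −log10 p is the peak caller's own value. Median fold enrichment was 2.02 for WT FOXP3 members (quartiles 1.84 and 2.29) and 2.02 for the 1489 other regions (1.84 and 2.29). It was 2.19 (2.01 and 2.33) against 2.16 (1.90 and 2.33) in the KO FOXP3 list. In the Ku70 lists it was 2.04 (1.85 and 2.22) against 2.04 (1.85 and 2.22) in Tregs and 2.11 (1.93 and 2.36) against 2.13 (2.02 and 2.46) in Tconv. The caller's −log10 q was 0 for all 675 members, so none had a q under 0.05, beside 7 of all 8752 regions (0.0800%). Many p-values were tied at 1 value. Of the Treg Ku70 members 156 of 361 (43.2%) had a −log10 p of 1.47, beside 49.0% of the other regions, of the WT FOXP3 members 55 of 146 (37.7%) had 1.34, beside 44.0%, and of the KO FOXP3 members 16 of 40 (40.0%) had 1.40, beside 60.4%. In Tconv Ku70 the commonest value, 2.21, was held by 15 of 128 members (11.7%), beside 14.5%. At least 2 on this scale was the value of 33 members of the WT FOXP3 list (22.6%, beside 18.7% of all its regions) and 16 of the KO FOXP3 list (40.0%, beside 33.1%). It was the value of 136 members of the Treg Ku70 list (37.7%, beside 37.7%) and 59 of the Tconv Ku70 list (46.1%, beside 48.0%).

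**Figure D3:**
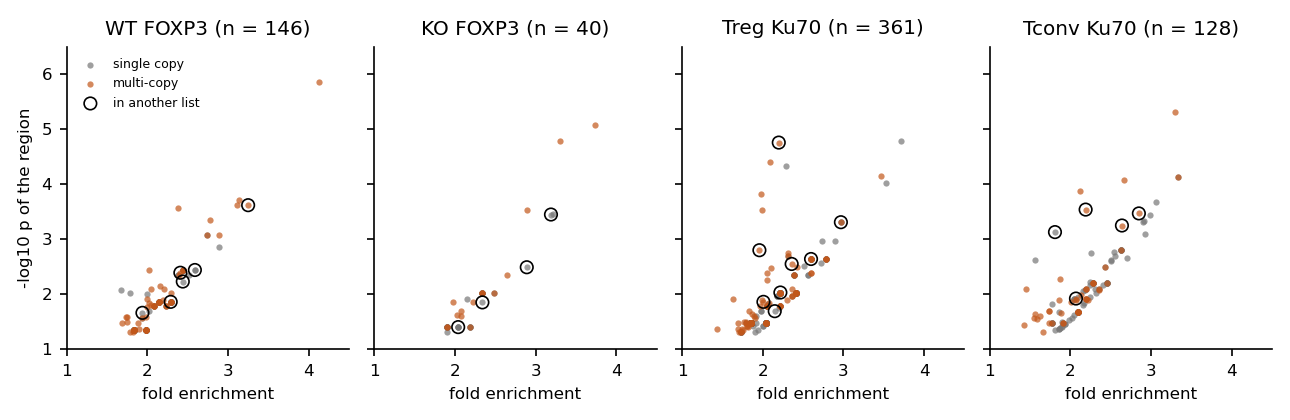
Fold enrichment (x axis) against −log10 p (y axis) of each member in the 4 lists. Grey points have a summit sequence that occurs once in the genome, orange points one that occurs more often, and rings mark members that overlap a region of another list. The highest point is Gm4111 in the WT FOXP3 list, at 4.13-fold and 5.86.

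In the Ku70 lists, summits at noncoding starts more often carried a sequence that occurs more than once in the genome than summits at coding starts did, under the settings used here. This held for 117 of 361 Treg Ku70 members (32.4%) against 91 of 476 regions at coding starts (19.1%; odds ratio 2.03, adjusted p = 0.000136), and for 48 of 128 Tconv Ku70 members (37.5%) against 43 of 192 (22.4%; odds ratio 2.08, adjusted p = 0.0137; two-sided Fisher's exact tests, adjusted by Benjamini-Hochberg over 11 tests). In the WT FOXP3 list 66 of 146 members (45.2%) and 30 of 96 regions at coding starts (31.2%) had such a summit, which did not pass (odds ratio 1.81, adjusted p = 0.0890, exact test). In the KO FOXP3 list they were 16 of 40 (40.0%) and 11 of 48 (22.9%; odds ratio 2.24, adjusted p = 0.167, exact test). Against regions away from all starts the WT FOXP3 difference passed (31.4% of 1393, adjusted p = 0.0121, exact test). The Treg Ku70 and Tconv Ku70 differences then did not (27.2% of 4230 and 28.8% of 1241, both adjusted p = 0.116, exact tests). The Treg Ku70 and Tconv Ku70 calls were also lost with only the 5′ end of each gene counted as a start (odds ratios 1.23 and 1.12) and with regions of −log10 p of at least 2 (1.46 and 0.858). Pseudogenes keep sequence of a parent gene, and the multi-copy share of all bases at noncoding or coding starts was not computed. The tests therefore cannot tell a trait of the regions from one of the sequence at such starts.

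By gene type, 149 of 336 pseudogene members (44.3%, 39.1 to 49.7), 42 of 103 small RNA members (40.8%, 31.8 to 50.4), 44 of 178 lncRNA members (24.7%, 19.0 to 31.5) and 12 of 58 others (20.7%, 12.3 to 32.8) had a multi-copy summit. Of all 247 multi-copy members, 76 had every other copy within 1 Mb and 99 had none within 1 Mb. In 116 members the summit sequence occurred at least 10 times. Repeat-masked bases, which here included dispersed and local repeats, lay under the summit of 47 of 146 WT FOXP3 members (32.2%), 12 of 40 KO FOXP3 members, 112 of 361 Treg Ku70 members and 42 of 128 Tconv Ku70 members (32.8%), beside 31.2% of the bases that meet the rule. The Treg Ku70 share was higher than the 19.5% at coding starts (odds ratio 1.85, adjusted p = 0.000993, exact test), and the other lists did not pass (27.1, 29.2 and 30.7% at coding starts, adjusted p = 0.580, 1.00 and 0.785, exact tests). Away from all starts masked summits were more common than among members in each list. They made up 38.5% (WT) and 42.9% (KO) of such FOXP3 regions, and 37.3% (Treg) and 34.3% (Tconv) of such Ku70 regions, with no test. The masked share of all bases at coding starts was not computed.

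**Figure D4:**
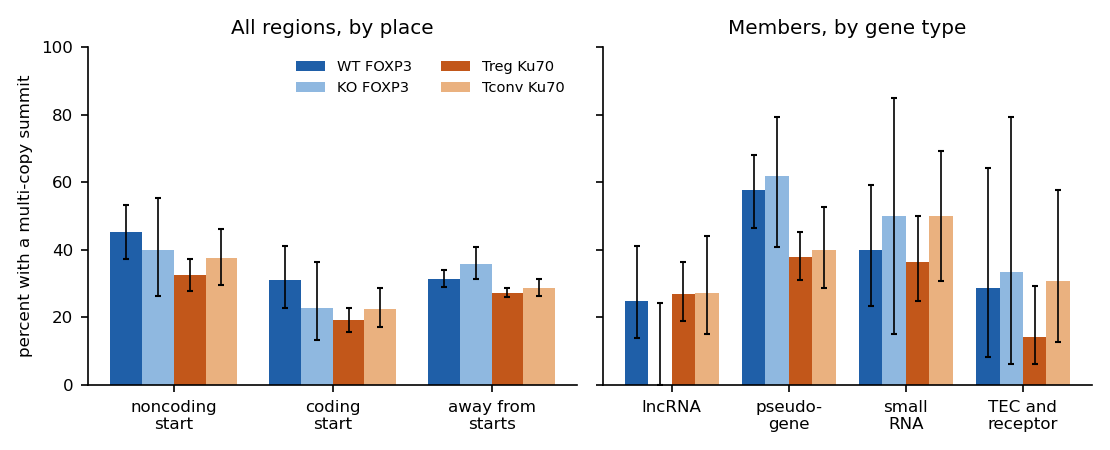
Percent of regions whose 31 summit bases occur more than once in the genome (y axis), with 95% Wilson intervals, in the 4 lists. Left, all autosomal regions by place. Right, members by gene type. The Treg Ku70 bars are 32.4% at noncoding starts, 19.1% at coding starts and 27.2% away from starts, and the KO FOXP3 lncRNA bar is 0 of 12.

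Pseudogene members were split by whether the summit lay inside the pseudogene, with no test of the split, and the transcribed classes (13 processed and 17 unprocessed) were counted with the others. Of 51 members inside processed pseudogenes 24 (47.1%, 34.1 to 60.5) had a multi-copy summit and 17 had a copy in an exon of a protein-coding gene. Of 201 beside processed pseudogenes 71 (35.3%, 29.0 to 42.1) were multi-copy and 10 had a copy in a coding exon. At unprocessed pseudogenes 26 of 39 inside (66.7%) and 23 of 35 beside (65.7%) were multi-copy. In all, 22 members in 20 pseudogenes had the summit inside the pseudogene and a copy in a coding exon, among them copies of the ribosomal protein genes Rpl10a and Rps23, of Npm1, which encodes the nucleolar protein nucleophosmin, of Tpt1 and of the lactate dehydrogenase subunit gene Ldhb. In 0 of the 22 did the same list hold a region at the coding copy. The share for other positions of the genome was not computed. Regions were sparse, and only 0.651 to 1.53% of all regions overlapped a second list in the comparisons below. The count therefore cannot show whether signal lies more at a pseudogene than at its parent.

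The region at Fabp3-ps1, a processed pseudogene of the fatty acid binding protein gene Fabp3 inside Ttc41 on chromosome 10 (86731987 to 86732388, minus strand), lay in all 4 lists. Its fold enrichment was 3.25 in WT FOXP3, 2.34 in KO FOXP3, 2.97 in Treg Ku70 and 2.07 in Tconv Ku70, with −log10 p of 3.62, 1.85, 3.31 and 1.92. The summits lay 96, 329, 222 and 384 bp inside the pseudogene. The KO FOXP3 summit sequence occurred once and those of the other lists 2 times, and the other copy of the WT FOXP3 summit was in Fabp3 itself, on chromosome 4 at 130312299 to 130312329. With 51 summit bases in place of 31 the WT FOXP3 and Treg Ku70 sequences were single-copy. No list held a region in Fabp3 (chromosome 4, 130308595 to 130315463), and the share of all genes without a region was not computed.

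A further region lay in 3 lists. Its nearest noncoding start is that of the antisense gene Gm49540 on chromosome 15, and its summits fell in the last exon of Mb (77015487 to 77016072), the gene of myoglobin, the oxygen-binding protein of muscle. It was 2.44-fold enriched in WT FOXP3 (77015666 to 77015997), 3.19-fold in KO FOXP3 (77015626 to 77016089) and 2.60-fold in Treg Ku70 (77015605 to 77015996), each with a single-copy summit. The Tconv Ku70 list had no region in Mb, and no other part of Mb held a region in any list.

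Members that overlapped a region of another list were few. Of WT FOXP3 members 4 of 146 (2.74%, 1.07 to 6.83) overlapped a Treg Ku70 region, beside 1.04% of all WT FOXP3 regions and 13 of the 1489 others (0.873%; odds ratio 3.20, adjusted p = 0.128, exact test). Of Treg Ku70 members 5 of 361 (1.39%, 0.593 to 3.20) overlapped a Tconv Ku70 region, beside 0.651% of all Treg Ku70 regions (odds ratio 2.35, adjusted p = 0.150, exact test). Of WT FOXP3 members 4 of 146 overlapped a KO FOXP3 region, beside 1.53% of all WT FOXP3 regions (odds ratio 1.97, adjusted p = 0.375, exact test). None of the 3 differences passed.

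The members shared by WT FOXP3 and Treg Ku70 were those at Fabp3-ps1, Gm49540, Peak1os and the snoRNA gene Gm22812. Peak1os is antisense to Peak1, a pseudokinase gene of the cytoskeleton, and its region lay in a Peak1 exon at 1.94-fold in WT FOXP3 and 2.15-fold in Treg Ku70. WT FOXP3 and KO FOXP3 shared Fabp3-ps1, Gm49540 and 2 lincRNA genes with single-copy summits. At Gm28556 on chromosome 1, 16.3 kb from a start of Ptprc in the WT list, the gene of the leukocyte phosphatase CD45, fold enrichment was 2.59 in WT and 2.89 in KO FOXP3. At Gm29243 on chromosome 8, 57.8 kb from a start of Saraf in the WT list, a regulator of store-operated calcium entry, it was 2.29 and 2.04. Treg Ku70 and Tconv Ku70 shared Fabp3-ps1, Snord116l17 (2.36-fold and 2.64-fold), Speer4cos (2.20-fold and 1.81-fold), and the unprocessed pseudogenes Gm18342 (2.01-fold and 2.85-fold) and Gm20778 (1.96-fold and 2.19-fold). All 5 Treg Ku70 summits were multi-copy by 31 bases, though with 51 bases those at Fabp3-ps1 and Speer4cos were single-copy. Among Treg Ku70 members single-copy by 31 bases 0 of 244 overlapped a Tconv Ku70 region. This stood beside 9 of all 3707 such Treg Ku70 regions (0.243%), a share too low for these members to show a difference. Gm20778 also held a WT FOXP3 region, 1.69-fold, at another position.

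The lncRNA Neat1, the scaffold of nuclear paraspeckles, carried a run of Ku70 regions. It was 1 of the 24 lncRNA genes of nuclear structure, imprinting and growth that were looked up and could hold a member. The Treg Ku70 list held 5 regions from 0.181 to 2.81 kb downstream of the Neat1 5′ end (chromosome 19, gene at 5824708 to 5845478, minus strand). The short misc_RNA gene Gm27533 (5844286 to 5844437) lies inside this stretch, and its start was the nearest to 4 of the 5. In order from the start, fold enrichment was 2.04, 2.41, 3.53, 2.73 and 2.04, with −log10 p of 1.47, 2.03, 4.03, 2.96 and 1.47, highest at 1.80 kb. The summits were single-copy and unmasked. The WT FOXP3 list held 1 region at 3.99 kb (2.29-fold), and the KO FOXP3 and Tconv Ku70 lists held none in Neat1 or from there to the end of its neighbour Malat1. Whether the lists differ at Neat1 was not tested.

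The host transcript Snhg14 on chromosome 7 (59307924 to 59975759, minus strand) held 26 members, 3.85% (2.64 to 5.58) of all, on 0.343% of the bases that meet the rule. They were chosen for description after their values were seen. WT FOXP3 had 7 there, KO FOXP3 2, Treg Ku70 9 and Tconv Ku70 8, and every region of the lists in this gene was a member. The gene contains 208 snoRNA genes of the annotation. Of these, 70 of 92 to 94 bp lie a median 2.53 kb apart and include 17 named Snord116, and 138 of 69 to 89 bp lie a median 1.87 kb apart. The array with the Snord116 genes held 16 members and the array of shorter genes 10.

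All 26 summits in Snhg14 were multi-copy. In 25 every copy lay within 1 Mb, and the other, at Gm24866 in Treg Ku70, had 1342 copies of which 1339 were elsewhere. Summit sequences in the array with the Snord116 genes occurred 17 to 52 times. In that array 9 of 16 summits lay 887 to 1198 bp downstream of the nearest snoRNA start. The regions of highest −log10 p in Snhg14 were Snord116l9 in KO FOXP3 (3.74-fold, −log10 p 5.08), Snord116l5 in Tconv Ku70 (3.30-fold, 5.31) and Snord116l17 in Tconv Ku70 (2.64-fold, 3.25). Without the regions in Snhg14, 40 of 120 Tconv Ku70 members (odds ratio 1.73, adjusted p = 0.132, exact test) had a multi-copy summit and the call of that list was lost, while the Treg Ku70 call held. Chromosome 7 as a whole held 75 of the 675 members (11.1%), and without it the Tconv Ku70 odds ratio was 1.59 (adjusted p = 0.210, exact test).

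**Figure D5:**
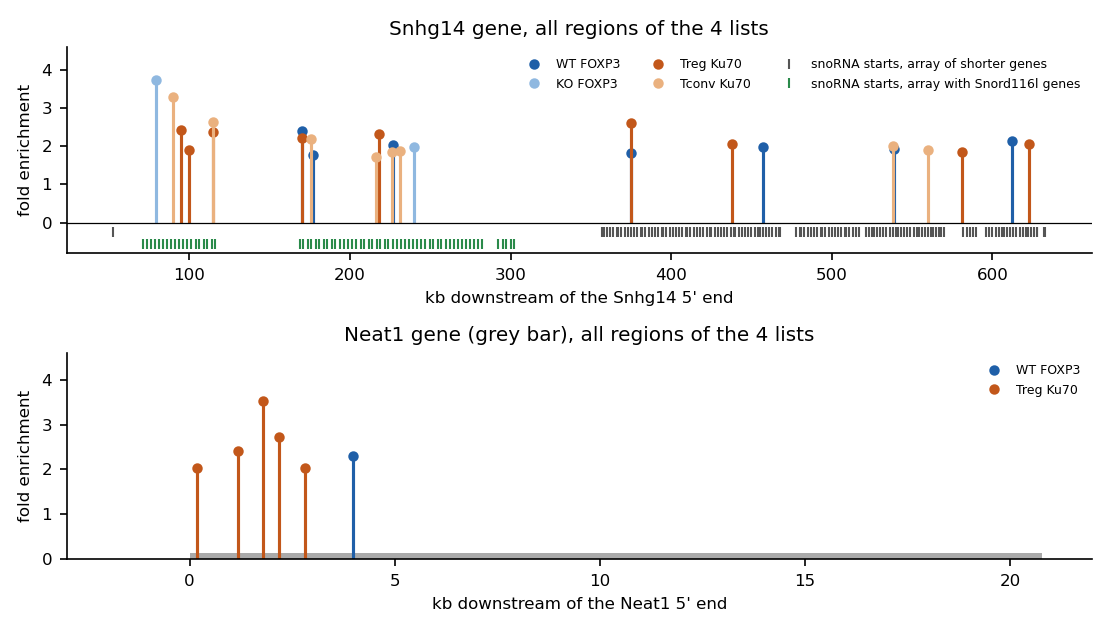
Fold enrichment (y axis) of every region in Snhg14 (top) and Neat1 (bottom) by distance in kb from the 5′ end of the gene (x axis), coloured by list. Ticks under the top panel are snoRNA starts of the array with the Snord116 genes (green) and of shorter snoRNA genes (grey), and the grey bar in the bottom panel is the Neat1 gene. The 5 Treg Ku70 regions of Neat1 stand in its first 2.81 kb, and 26 regions of the 4 lists are spread over both arrays.

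Among lncRNA genes the strongest Treg Ku70 member lay upstream of the antisense gene AC119228.1, at −1794 bp from its start, on chromosome 19, in an exon of Cd274, the gene of the immune checkpoint ligand PD-L1 (3.71-fold, −log10 p 4.79, single-copy). No other list had a member there. Among the strongest KO FOXP3 lncRNA members was the region at Gm49540 (3.19-fold, 3.45). In WT FOXP3 they were Gm21847 (2.38-fold, 3.57), with 9 copies of the summit, and Gm43263 (2.78-fold, 3.35), with 8. In Tconv Ku70 they were Gm21847 again, at another position (2.66-fold, 4.08), and Gm13861 inside Cald1, the gene of the actin-binding protein caldesmon (2.99-fold, 3.45).

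Among pseudogenes, WT FOXP3 was strongest at Gm4111 (4.13-fold, 5.86) and Gm14186 (3.14-fold, 3.72), whose summit sequence occurred 2897 times. Among the strongest in KO FOXP3 was Gm11783 (2.89-fold, 3.53). Treg Ku70 was strongest at Gm11400 inside Sfi1 (2.09-fold, 4.40) and Gm21112 (1.98-fold, 3.82), and Tconv Ku70 at Gm7180 inside Pde8a, a cyclic AMP phosphodiesterase gene (3.34-fold, 4.13), and Gm45754 (2.12-fold, 3.88, 96 copies). Of these 7, Gm7180 alone had a single-copy summit by 31 bases. With 51 bases Gm11400 was single-copy too, and Gm45754 had 2 copies.

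Further small RNA genes named by rank were the microRNA gene Gm22707 in Treg Ku70 (3.47-fold, 4.16, 4 copies by 31 bases and 1 by 51), and the snRNA gene Gm26146 (2.44-fold, 2.44) and Gm22812 (2.41-fold, 2.39) in WT FOXP3. In KO FOXP3 the snoRNA gene Gm23953 in Snhg14 came second (1.98-fold, 1.86). Of the 21 members at microRNA genes, 9 were in WT FOXP3, 8 in Treg Ku70, 3 in Tconv Ku70 and 1 in KO FOXP3. At Mir103-2, in an intron of the pantothenate kinase gene Pank2, a Treg Ku70 summit lay just upstream of the precursor, at −56 bp (2.04-fold, 1.47).

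Of all noncoding genes that could hold a member, 695 of 29093 had one in any list (2.39%), and the counts of genes looked up by name are too small to set apart from that share. No listed immune microRNA or host gene had a member in any list, 0 of the 46 that could hold one, nor did any of 14 snoRNA host genes of a second list, which did not include Snhg14. Of 19 genes of structural small RNAs, such as Y RNA and telomerase RNA, 1 had a member. This was Rny1 in WT FOXP3, whose region (3.11-fold, 3.62) was nearer to the pseudogene Rpl31-ps7. Of the 24 lncRNA genes above, Neat1 and Snhg14 had a Treg Ku70 member and Snhg14 a Tconv Ku70 member.

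Members at immunoglobulin and T cell receptor variable segments, genes and pseudogenes together, numbered 3 in WT FOXP3, 2 in KO FOXP3, 4 in Treg Ku70 and 3 in Tconv Ku70. Of these 12, 11 were heavy chain segments on chromosome 12 and 1 was Trav3-1, a T cell receptor alpha segment, in Treg Ku70 (2.39-fold, 2.34). Among the TEC and receptor class the strongest were Gm10388 in Tconv Ku70 (3.34-fold, 4.13, 31 copies by 31 bases and 1 by 51) and AC154912.3 inside Fkbp5, a glucocorticoid-responsive gene (2.90-fold, 3.31). In WT FOXP3 they were Gm37829 (2.44-fold, 2.44) and Ighv1-24 (2.20-fold, 1.90), and in Treg Ku70 Gm42599 (2.78-fold, 2.64) and Gm10741 (2.60-fold, 2.64). All 3 KO FOXP3 members of the class, Gm47196 and Ighv1-76 among them, were tied at 1.90-fold and 1.40.

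The forkhead core TGTTTAC, searched for on either strand up to 50 bp from the summit, was found in 1 of 146 WT FOXP3 members (0.685%, 0.121 to 3.78; 1.47% of all WT FOXP3 regions), 0 of 40 KO FOXP3 members (upper Wilson limit 8.76%; 2.04% of all), 6 of 361 Treg Ku70 members (1.66%; 1.01% of all) and 1 of 128 Tconv Ku70 members (0.781%; 0.705% of all). A run of 3 TTTG units was in 3 Treg Ku70 members, at Gm14095, Gm20778 and Gm26898 (0.831%, 0.283 to 2.41; 0.197% of all Treg Ku70 regions). It was in 0 of 146 WT FOXP3 members (0.245% of all), 0 of 40 in KO FOXP3 (0.204% of all) and 0 of 128 in Tconv Ku70 (0.128% of all), counts too small to set apart from those shares.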

How the data were processed

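ChIP-seq for FOXP3 and Ku70 was analysed from 4 region lists of 12 samples. Per the study's methods, the authors trimmed reads with Trim Galore, mapped them to mm10 with Bowtie2 under default settings, removed duplicates with Picard, and called regions with MACS2 at p 0.05 on 2 pooled replicates against 1 input, with an extension of 140 bp and no model. Versions are not given in the sources used here. Under Bowtie2's defaults a read with several equally good positions is placed at 1 of them, so values at multi-copy summits may hold reads from the other copies. The deposited columns hold a score, a fold enrichment (a ratio over local background), −log10 p and −log10 q values, and the summit offset, all from the authors' caller. Depth per sample is not recorded in the lists.

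Rows of the same region were combined, keeping the highest fold. Starts came from GENCODE M21, and bases from the RefSeq GRCm38.p6 genome, the build of mm10. The type of a member was that of its nearest noncoding start. Summit copies were exact matches of 31 bases on either strand of the chromosomes and unplaced contigs. Copy numbers are by 31 bases unless 51 are named. Reads were longer than either per the study's methods, so a read over a multi-copy summit can still be unique. Overlap was at least 1 bp. Shares carry 95% Wilson intervals, and 11 two-sided Fisher's exact tests were adjusted by Benjamini-Hochberg (scipy 1.17.1). Steps were tested on simulated data. Named genes were the 2 members of highest −log10 p per list and gene type, members overlapping another list, genes with members in at least 3 lists, and members at genes of 4 lists. The exon of Mb, the parent copies of pseudogenes, the receptor segments, Gm24866 and Mir103-2 were chosen after their values were seen. Members and lists were chosen with earlier results of these data known. Alternatives were other windows, starts, strengths, copy lengths, gene types, overlaps and a chromosome left out. A few results under the rule for named genes are not reported here.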

Additional observations from a re-analysis of the deposited data

How the results depend on the processing

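Of 142 alternatives, 112 were counted as leaving the value they bear on as it was. For a tested value this meant the same direction and call. For a share or a median it meant a new value inside the main Wilson interval or the main quartiles. The share of pseudogenes among members stayed inside in all 20. Whether its interval still lay above the share of bases was not recomputed. With a window of 1 kb the shares of regions at noncoding starts were, for FOXP3, 3.00% (WT) and 3.68% (KO) and, for Ku70, 2.33% (Treg) and 3.40% (Tconv), beside 2.34% of bases, and with 10 kb 19.0, 17.4, 16.1 and 16.7%, beside 14.5%. The WT FOXP3 share was 10.8% among regions with a −log10 p of at least 2 and 7.26% among single-copy summits, and the Treg Ku70 share 6.43% without TEC genes and receptor segments. Median fold enrichment at a −log10 p of at least 2 was 2.44, 2.48, 2.41 and 2.43 in the same order, as fold and p move together by construction.

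For multi-copy summits against coding starts (odds ratios, exact tests), WT FOXP3 passed when any part of a region counted (1.93, adjusted p = 0.0478) and against regions away from starts (1.80, adjusted p = 0.0121). With 51 summit bases in place of 31 the calls of Treg Ku70 (85 of 361, 1.62) and Tconv Ku70 (39 of 128, 2.19) held (both adjusted p = 0.0285, exact tests). WT FOXP3 (51 of 146, 1.52, adjusted p = 0.291) and KO FOXP3 (14 of 40, 1.81, adjusted p = 0.375) did not pass these exact tests. By the same exact tests the Treg Ku70 call was lost with 5′ ends of genes only (1.23, adjusted p = 0.427), at a −log10 p of at least 2 (1.46, adjusted p = 0.388) and against regions away from starts (1.28, adjusted p = 0.116). By the same exact tests the Tconv Ku70 call was lost with 1 kb (2.26, adjusted p = 0.0897), 5′ ends only (1.12, adjusted p = 0.927), without chromosome 7 (1.59, adjusted p = 0.210), against regions away from starts (1.49, adjusted p = 0.116) and without Snhg14 (1.73, adjusted p = 0.132), and turned at a −log10 p of at least 2 (0.858, adjusted p = 0.885). Overlap of WT FOXP3 members with Treg Ku70 turned at 10 kb (odds ratio 0.567), and that of Treg Ku70 members with Tconv Ku70 was 0 with single-copy summits. Masked summits turned without Snhg14 in KO FOXP3 (0.989) and Tconv Ku70 (0.928). Leaving out Snhg14 was chosen after seeing the data. The cause of these changes was not tested.

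No paired analysis was possible because each list pools its replicates and holds no value per replicate, and for the same reason leaving out each replicate was not run. The KO FOXP3 list held 40 members, and 4 or 5 members were shared between lists.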
